A study of Mus musculus with 8 samples.

Results

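The genes described here are the Otx genes *Otx1* and *Otx2* and the class III POU genes *Pou3f1*, *Pou3f2*, *Pou3f3* and *Pou3f4*, measured in mouse E14 embryonic stem (ES) cells on 1-colour expression microarrays. They were found as the probes that are not array controls and whose gene name is one of these symbols, which gave 6 probes, 1 for each gene, of 55681 probes that carry 36406 gene or transcript names. The cells were E14Tg2A.4, 1 established ES cell line. Each condition was measured in 4 biological replicates, each on its own array. In 1 condition the cells were left untreated. In the other they were treated for 72 h (3 days) with 1 µM all-trans retinoic acid (RA) in medium without leukemia inhibitory factor (LIF), the cytokine that holds ES cells in self-renewal. The effects of RA and of LIF removal therefore cannot be told apart here. Since RNA was taken from whole cultures, fewer cells of a type and less RNA per cell cannot be told apart either.

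Otx proteins are homeodomain transcription factors of the bicoid type. *Otx2* is active in the epiblast and in the anterior visceral endoderm of the early mouse embryo and later in the forebrain and midbrain, where it is required for head formation, and its paralog *Otx1* acts later in the developing forebrain. Class III POU proteins bind octamer DNA motifs through a POU-specific domain joined to a homeodomain, often together with Sox proteins, and are known for their roles in the nervous system. *Pou3f1* (Oct6) is also active in the epiblast and in Schwann cells, *Pou3f2* (Brn2) and *Pou3f3* (Brn1) act together in the developing cortex and hypothalamus, and *Pou3f4* (Brn4) acts in the inner ear and in the forebrain. RA is a posteriorising signal in the embryo and is used to drive cultured ES cells towards differentiated fates.

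Each value below rests on a single 60-base probe, so the probes are shown first. The start of each of 4 probes is given as the array's design file orders it, and positions are on mm9. The *Otx1* probe (NM_011023) lies at chr11:21895767-21895826 on the minus strand, the *Otx2* probe (NM_144841) at chr14:49277855-49277914 on the minus strand, the *Pou3f1* probe (NM_011141) at chr4:124337692-124337751 on the plus strand and the *Pou3f3* probe (NM_008900) at chr1:42756099-42756158 on the plus strand. Whether a probe lies in coding sequence or in an untranslated region was not analysed here, because no annotation of that build was at hand. The first 30 bases of these probes are:
*Otx1*: gtatatcaaccgtttggagtgtgtccatac
*Otx2*: tttcagggctgtgtggattgtgcgactgat
*Pou3f1*: ggagcttcccccttcaccatttcttcatct
*Pou3f3*: atgggaactttctttatggggagcgacctg

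The probes of *Pou3f2* (NM_008899, chr4:22414031-22414090, minus strand) and *Pou3f4* (NM_008901, chrX:108010778-108010837, plus strand) cover related stretches of sequence, and they are shown whole because of the bases they share. When slid along each other without gaps they overlap by 40 bases, of which 32 (80%) are identical, and the capitals below mark these bases:
*Pou3f2*: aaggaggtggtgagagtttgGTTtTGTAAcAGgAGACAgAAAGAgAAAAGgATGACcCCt
*Pou3f4*: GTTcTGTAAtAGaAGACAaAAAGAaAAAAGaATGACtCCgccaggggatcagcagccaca
The longest run of identical bases is 5. The next most similar pair of the 6 probes, *Otx1* and *Otx2*, matches at 42.3% of 52 overlapping bases. Cross-reading between *Pou3f2* and *Pou3f4* was not tested, and the *Pou3f4* probe gave no signal above background on any array.

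The 6 genes fell into groups by level. Values are log2 intensities relative to the 75th percentile of all non-control spots on the same array, so a gene at 0 is as bright as that percentile, and a spot counts as well above background by the flag of the scanner software. In untreated cells *Otx2* and *Pou3f1* were well above background on all 4 arrays, *Pou3f3* on 1, and *Pou3f2*, *Otx1* and *Pou3f4* on none. In RA-treated cells *Otx2* and *Pou3f1* were again above background on all 4 arrays, *Pou3f3* on 3 and *Pou3f2* on 2, while *Otx1* and *Pou3f4* stayed on none. For comparison, 49.4% of all probes were well above background on all 8 arrays and 29.9% on none. The levels of different probes are not compared with each other, since probes differ in how brightly they report the same amount of RNA.

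**Figure D1:**
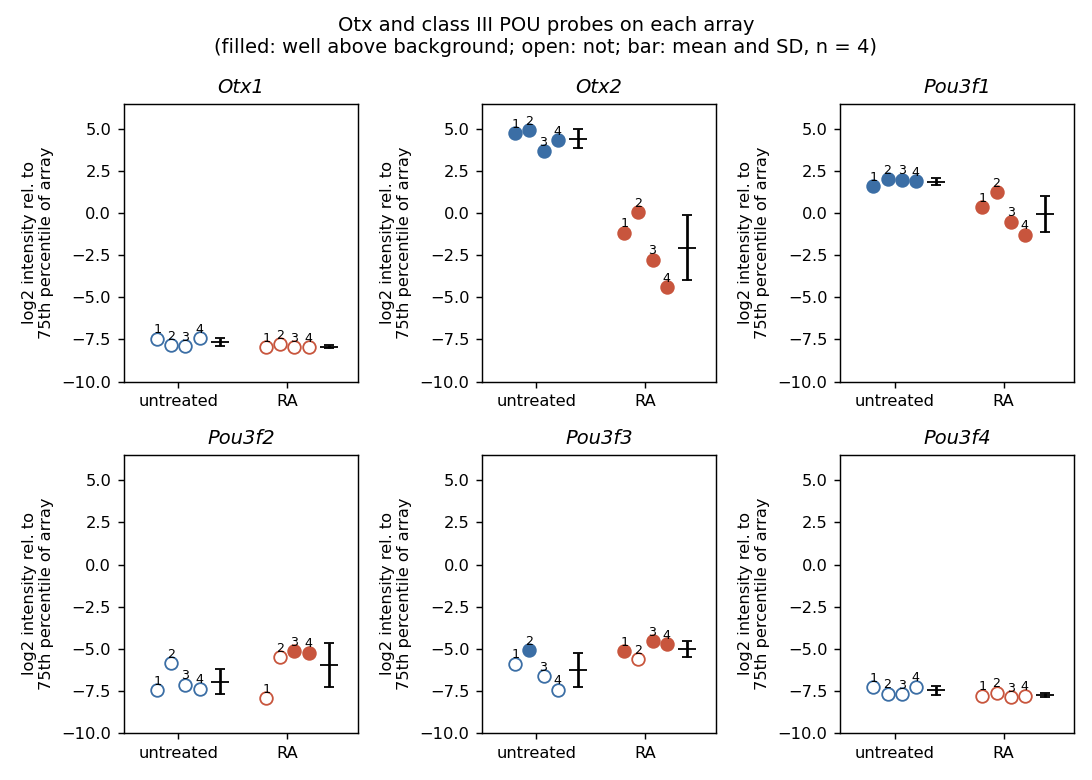
Log2 intensity relative to the 75th percentile of the array (vertical axis) for each of the 6 probes in untreated and RA-treated cells. Each point is 1 array with its replicate number, filled points are well above background and open points are not, and the bar beside each group gives the mean and SD of 4 arrays. *Otx2* (mean 4.42 untreated and -2.07 after RA) and *Pou3f1* (1.87 and -0.05) lie lower on every RA array than on every untreated array, with the RA arrays spread more widely, while the other 4 genes lie near the floor.

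*Otx2* was bright in untreated cells and fell after RA. Its log2 levels in untreated replicates 1, 2, 3 and 4 were 4.76, 4.92, 3.66 and 4.33, from intensities of 21010, 25980, 12950 and 14910. In RA-treated replicates 1, 2, 3 and 4 they were -1.17, 0.05, -2.76 and -4.40, from intensities of 519.5, 986.2, 143.1 and 49.0. All RA arrays lay below all untreated arrays, and the highest RA array was still 3.61 log2 units below the lowest untreated array. The mean went from 4.42 ± 0.56 to -2.07 ± 1.93 (SD, n = 4 each), a log2 fold change of -6.49 with an SE of 0.84 and a 95% interval from -8.40 to -4.57. This is an 89.7-fold decrease with an adjusted p of 0.000362 (limma). The size moved with the RA arrays used, to -5.71 without RA replicate 4 and -7.19 without RA replicate 2 on the log2 scale, and it was -5.67 with the authors' processed values. Arrays of the same replicate number were treated as pairs, although the labels do not say that the cultures were paired. Within the 4 pairs the log2 difference was -5.93, -4.87, -6.42 and -8.73.

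*Pou3f1* fell less far. Its log2 levels in untreated replicates 1, 2, 3 and 4 were 1.59, 2.03, 1.98 and 1.88, a range of 1.35-fold. In RA-treated replicates 1, 2, 3 and 4 they were 0.36, 1.23, -0.52 and -1.29, a range of 5.75-fold. The groups did not overlap, although RA replicate 2 came within 0.36 log2 units of the lowest untreated array. The mean went from 1.87 ± 0.19 to -0.05 ± 1.09 (SD, n = 4 each), a log2 fold change of -1.92 (SE 0.47, 95% interval -3.00 to -0.85). The decrease was 3.80-fold with an adjusted p of 0.0116 (limma). Tested against a change of 1.5-fold rather than against no change, the adjusted p was 0.0578 and the gene was not called. Within the pairs the log2 difference was -1.23, -0.79, -2.50 and -3.17, so all 4 pairs were lower after RA.

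*Pou3f3* was higher on average after RA, but the difference did not pass the test. Its log2 levels were -5.90, -5.11, -6.65 and -7.44 in untreated replicates 1 to 4, of which only replicate 2 was well above background. They were -5.13, -5.63, -4.57 and -4.74 in RA-treated replicates 1 to 4, and here all but replicate 2 were well above background. The groups overlapped through untreated replicate 2, which lay above RA replicates 1 and 2, while the other untreated arrays lay below all RA arrays. The log2 difference of the means was 1.26 (SE 0.47, 95% interval 0.18 to 2.33) with an adjusted p of 0.0666. The call turned with the processing, with adjusted p-values from 0.0439 to 0.592 over the alternatives, and without untreated replicate 2 the difference was 1.64 and the adjusted p 0.0148. The difference was 0.09 with normexp background correction of the raw signals, 0.33 with normexp and quantile normalization, and 0.33 with the authors' processed values. Within the replicate pairs it was 0.77, -0.52, 2.08 and 2.70. The intensities behind these values were between 4.27 and 25.0 in untreated and between 19.3 and 40.9 in RA-treated cells, and on 1 untreated array the software had put a substitute value in place of a signal too close to background.

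*Pou3f2* was well above background only in RA-treated replicates 3 and 4. Its log2 levels were -7.45, -5.85, -7.15 and -7.38 on the untreated arrays and -7.93, -5.50, -5.15 and -5.24 on the RA arrays, so that 3 RA arrays lay above all untreated arrays and RA replicate 1 below all of them. The level of RA replicate 1 is a substitute value of the software, as are 2 of the untreated values. The log2 difference of the means, 1.00 (SE 0.64), had an adjusted p of 0.227, and no fold is given, since 6 of the 8 values were not well above background. Without RA replicate 1 the difference was 1.66 and the adjusted p 0.0129. With normexp the difference was -0.0083, and within the replicate pairs it was -0.49, 0.35, 1.99 and 2.14.

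*Otx1* and *Pou3f4* were not well above background on any of the 8 arrays, and all 8 values of each are substitute values. No level and no fold can be given for them. The substitute values were between -7.98 and -7.44 for *Otx1* and between -7.89 and -7.25 for *Pou3f4*, and their differences between the conditions of -0.25 and -0.29 are of the size of the median over all probes, -0.28. The adjusted p-values were 0.220 and 0.194.

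Of the 6 genes, 0 were called higher and 2, *Otx2* and *Pou3f1*, were called lower at an adjusted p under 0.05 and a change above 1.5-fold. Among all probes 12.9% (7196) were called higher and 21.6% (12044) lower by the same rule. This split depends on the scaling, with 8152 called higher and 8704 lower after quantile normalization and 6275 higher and 6583 lower with the authors' values. All 4 RA arrays lay below all 4 untreated arrays for the same 2 genes, as for 23.8% of all probes, and above them for 0 of the 6, as for 13.9% of all probes. With only 6 genes, 4 of them near or below background, these shares say little about the group as a whole.

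The arrays lie on 2 slides, each with 2 untreated and 2 RA-treated arrays, and *Otx2* and *Pou3f1* were lower after RA within both. On slide 1 and slide 2 the log2 difference was -7.00 and -5.98 for *Otx2*, and -2.25 and -1.59 for *Pou3f1*. For *Pou3f3*, which was not called, it was 1.34 and 1.18, and for *Pou3f2*, not called either, 0.71 and 1.29.

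Whether paralogs changed differently was asked from the difference between the log2 levels of 2 genes on the same array, in which the scaling of the array cancels. The test was made for 7 pairs, but the 6 that hold *Otx1*, *Pou3f2* or *Pou3f4* include a gene without a signal above background in any untreated culture and are not read here. In the remaining pair *Pou3f1* moved relative to *Pou3f3* by -3.18, with an exact permutation p (two-sided, 70 splits) of 0.0286, the smallest that 4 arrays against 4 can give, and 0.0667 after Benjamini-Hochberg adjustment over the 7 pairs. With normexp the difference was -1.92. Of the 8 values of *Pou3f3* 4 were not well above background, so the difference rests in part on background signal. *Pou3f1* was lower relative to *Pou3f3* in 4 of 4 same-numbered pairs, where an exact sign-flip test cannot go below p = 0.125.

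**Figure D2:**
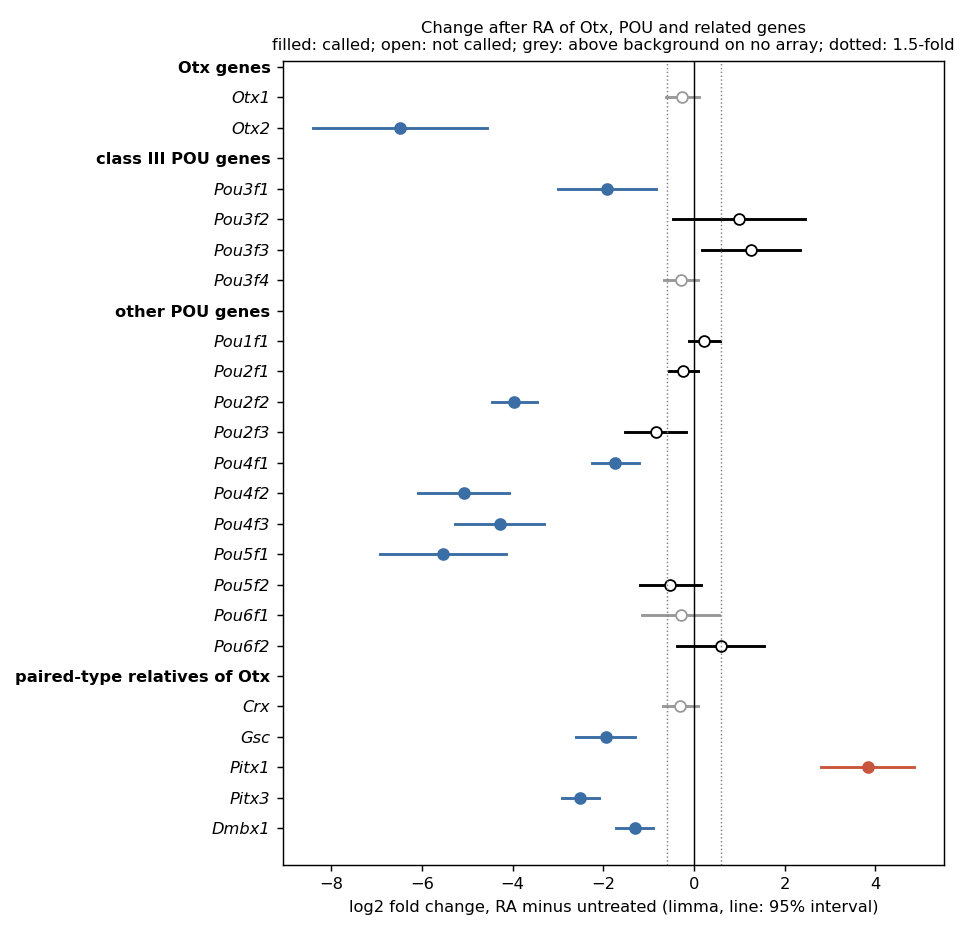
Log2 fold change of RA-treated against untreated cells (horizontal axis) for the Otx and class III POU genes and for 2 lists of related genes (the other POU genes and 5 of the 6 paired-type relatives), with the 95% interval from limma as a line. Filled points were called, in blue where lower and red where higher, open points were not called, grey points were above background on no array, and dotted lines mark a 1.5-fold change. *Otx2* (-6.49) lies farthest to the left, *Pou3f1* (-1.92) has an interval from -3.00 to -0.85, and the intervals of *Pou3f2* and *Otx1* span 0.

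*Otx2* and *Pou3f1* differed more between the RA-treated arrays than between the untreated ones. *Otx2* spanned 2.39-fold over the untreated and 21.8-fold over the RA arrays. Both genes were highest on RA replicate 2, then on replicates 1, 3 and 4. The summed level of 7 ES cell markers (*Pou5f1*, *Nanog*, *Sox2*, *Zfp42*, *Esrrb*, *Klf4* and *Tdgf1*) took the same order, at 16.5, 34.2, 14.9 and 10.5 times the 75th percentile in RA replicates 1 to 4, against 272.8 to 376 in untreated cells. All 7 were called lower after RA, all 7 were well above background on all untreated and all RA arrays, and 6 of the 7 were highest on RA replicate 2 and 6 of the 7 lowest on RA replicate 4. This was not particular to ES cell markers. Of 6 mesoderm and smooth muscle markers, 5 were highest on RA replicate 2 and 3 lowest on RA replicate 4, while 2 of 6 neural markers were highest on RA replicate 2. The summed level of 8 primitive and parietal endoderm markers, all 8 of them called higher, was 284.1, 293.2, 240.1 and 246.9 on the same RA arrays. *Sparc*, the brightest of these probes, weighs most in that sum. By gene, 2 of the 8 were highest and 3 lowest on RA replicate 2. Among 7611 probes that were called lower and well above background on all arrays, 45.8% were highest on RA replicate 2, 32.8% were lowest on RA replicate 4, and 11.1% had the whole order of *Otx2* and *Pou3f1*. *Pou3f3*, in contrast, was lowest on RA replicate 2. In untreated cells *Otx2* was lowest on replicate 3, where the ES cell marker sum was also lowest, while *Pou3f1* was not. By gene, 4 of the 7 ES cell markers were lowest there, but so were 6 of the 8 endoderm markers and 9 of 12 forebrain genes. Fewer were lowest there among anterior visceral endoderm genes (0 of 7) and mesoderm and smooth muscle markers (1 of 6). The share over all probes was not computed. The part of undifferentiated cells in these array differences was not tested.

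The genes whose log2 levels, set to 0 at the untreated mean, lay closest to those of *Otx2* over the 8 arrays were *Fgf4*, *Klk1b5* and *Tdh*, out of 14585 gene names above background on all arrays of at least 1 condition. *Fgf4*, a growth factor of the ES cell and epiblast stage, lay at a root mean square distance of 0.46 log2 units and fell by 6.08 on the log2 scale. Its values were -0.90, 1.17, -1.68 and -2.75 in RA replicates 1 to 4, with replicate 2 highest and replicate 4 lowest, a likeness to *Otx2* that the choice by distance favours. *Klk1b5*, a kallikrein that was above background on 1 RA array, lay at 0.51, and *Tdh*, the threonine dehydrogenase on which mouse ES cells depend for growth, lay at 0.55 and fell by 6.05. For *Pou3f1* the closest genes were *Pck1*, a gluconeogenic enzyme that was above background on no RA array, *Nefl*, a neurofilament subunit, and *Tmem45a*, at distances of 0.22, 0.32 and 0.32. The distances of *Pck1* and *Klk1b5* thus rest on RA values mostly or wholly at background. *Nefl* fell by 1.79 and *Tmem45a* by 1.87 on the log2 scale.

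**Figure D3:**
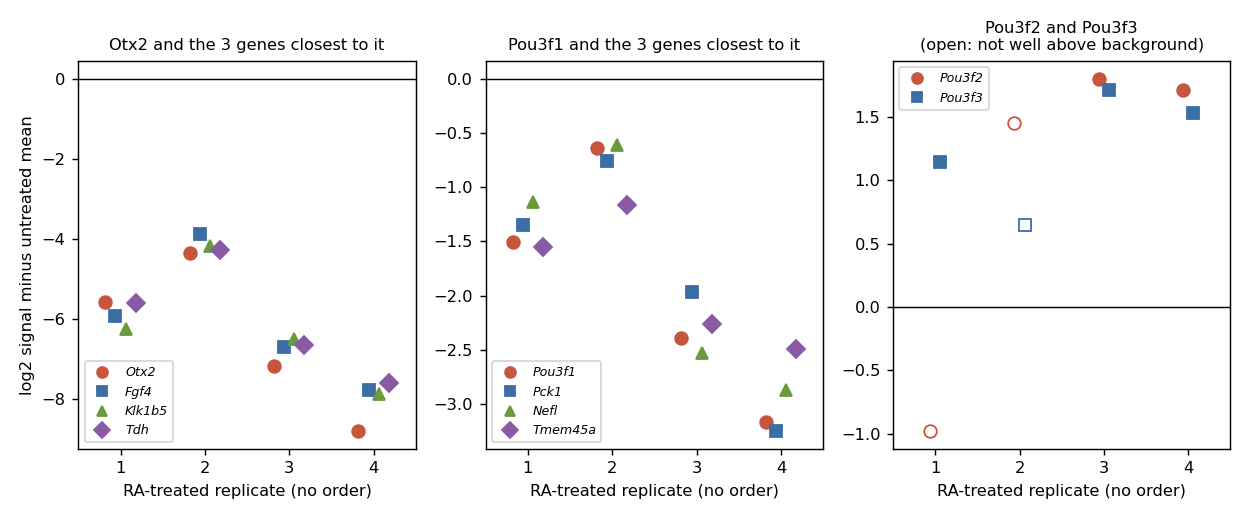
Log2 signal on each RA-treated array minus the mean of the untreated arrays (vertical axis, on a separate scale in each panel) for *Otx2*, *Pou3f1* and the 3 genes closest to each, and for *Pou3f2* and *Pou3f3*, where open points are not well above background. *Otx2* and *Pou3f1* lie highest on replicate 2 and lowest on replicate 4, an order that the genes beside them share by the way they were chosen, and *Pou3f2* on replicate 1 is the only value of the right-hand panel that lies under the untreated mean.

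Among the other POU genes none was called higher and 5 of 11 were called lower, with a median log2 fold change of -0.85 against -0.28 over all probes. *Pou5f1* (Oct4), the POU factor that maintains pluripotency, fell by 5.54 on the log2 scale (SE 0.61, adjusted p = 0.000152). It was at 5.29 or higher on every untreated array and at 0.39, 2.05, -0.68 and -1.16 in RA-treated replicates 1 to 4, so that its RA arrays stood in the order seen for *Otx2*. *Pou4f2* (Brn3b), a factor of retinal ganglion cells, was above background on no RA array and was at least 18.9-fold lower than in untreated cells (adjusted p = 4.14e-05). *Pou4f1*, *Pou4f3* and *Pou2f2* were also called lower. *Pou5f1* counts among the ES cell markers too. The remaining 6 POU genes were not called.

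The paired-type relatives of the Otx genes went both ways, with 2 of 6 called higher and 3 lower (median -0.80). *Pitx1*, a homeobox gene of hindlimb and pituitary, rose by 3.84 on the log2 scale (adjusted p = 0.000208) and was above background on 3 of the 4 untreated arrays. *Pitx3*, known from lens and dopaminergic neurons, fell by 2.51 and *Gsc*, a gene of the organiser, by 1.95 (adjusted p = 1.56e-05 and 0.000759), with *Pitx3* above background on 3 of the 4 RA arrays. *Crx*, the photoreceptor gene closest to Otx in sequence, was above background on no array.

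Of 9 epiblast genes 5 were called lower and 1 higher, with a median of -1.84, close to the change of *Pou3f1*. *Foxd3* and *Utf1*, both active in pluripotent cells, fell by 5.92 and 4.86 on the log2 scale (adjusted p = 0.000121 and 3.69e-05), with *Foxd3* above background on 2 of the 4 RA arrays. *Fgf5*, the growth factor that marks the epiblast after implantation, was the only one of the list called higher, with a log2 fold change of 3.52 (SE 0.43, adjusted p = 0.000254), and thus opposite to *Otx2* and *Pou3f1*. *Dnmt3a*, *Lef1* and *Sox3* were not called. The summed level of the list was lowest on untreated replicate 3, at 95.9 against 155.1 to 161.6 on the other untreated arrays, which was also the untreated array with the lowest *Otx2*. Many genes of other lists were lowest on that array too, among them 9 of 12 forebrain genes.

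Genes of the forebrain and anterior neural plate, where Otx genes act in the embryo, did not move together. Of 12, 4 were called higher, 1 lower and 7 not, and 4 were above background on no array (median -0.01). *Emx2*, a gene of the dorsal forebrain, was above background only after RA and was at least 7.46-fold higher (adjusted p = 3.8e-06), and *Lhx2*, needed for eye and cortex, rose by 3.17 on the log2 scale (adjusted p = 2.76e-05). *Rax*, an eye-field gene, fell by 2.38 (adjusted p = 0.00133). Genes of the midbrain-hindbrain boundary and hindbrain, whose anterior limit *Otx2* helps to set, were split evenly, with 4 of 13 called higher and 4 lower. The 4 called higher included *Hoxa2* and *Hoxb1*, hindbrain genes that RA is known to induce, which were above background only after RA and were at least 85.0-fold and at least 44.7-fold higher (adjusted p = 1.06e-05 and 1.08e-05). *En2* fell by 2.42 on the log2 scale (adjusted p = 5.13e-05) and *Pax8* was at least 7.62-fold lower (adjusted p = 0.000122). *Gbx2*, which opposes *Otx2* at that boundary and is also active in ES cells, was among those called lower, with a log2 fold change of -2.03 (SE 0.46, adjusted p = 0.00752).

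Among 8 partners and neural targets of class III POU factors 3 were called higher and 3 lower (median 0.10). *Fabp7* and *Nes*, genes of neural progenitors with known sites for class III POU factors, rose by 2.56 and 2.10 on the log2 scale (adjusted p = 0.00591 and 2e-05), but *Fabp7* was above background on just 1 untreated array. *Sox2*, the Sox partner of POU factors in ES cells and in neural progenitors, fell by 2.58 (adjusted p = 1.93e-05). *Myt1l*, a neuronal zinc finger gene, was called lower (adjusted p = 0.0108), but it was above background on just 1 untreated array and its groups overlapped. It was above background on no RA array, so no fold is given, and the filter on dim probes removes it. Of 6 neural markers on the array, which include *Nes*, 2 were called higher and 1 lower, and their summed level was 5.98 to 9.54 times the 75th percentile in untreated and 10.5 to 11.8 in RA-treated cells. The genes behind this sum went both ways, since *Nes* and *Dcx* were called higher while *Tubb3* fell by 2.22 on the log2 scale and the remaining 3 were not called. In the anterior visceral endoderm list, a second site of *Otx2* activity, 2 of 7 genes were called higher and 2 lower (median 0.37). *Dkk1* and *Foxa2* rose by 5.62 and 5.03 on the log2 scale (adjusted p = 3.72e-05 and 6.42e-06), while *Lefty1*, which ES cells also express, fell by 5.72 and *Hhex* by 0.63 (adjusted p = 0.000187 and 0.0124). The *Hhex* change, 1.545-fold, was just above the 1.5-fold threshold. With normexp and with the authors' values 1 instead of 2 genes of this list was called lower. *Foxa2* is also a gene of the wider endoderm. All 8 primitive and parietal endoderm markers were called higher, as were all 4 trophoblast markers on the array, and a link of either to *Foxa2* was not tested.

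**Figure D4:**
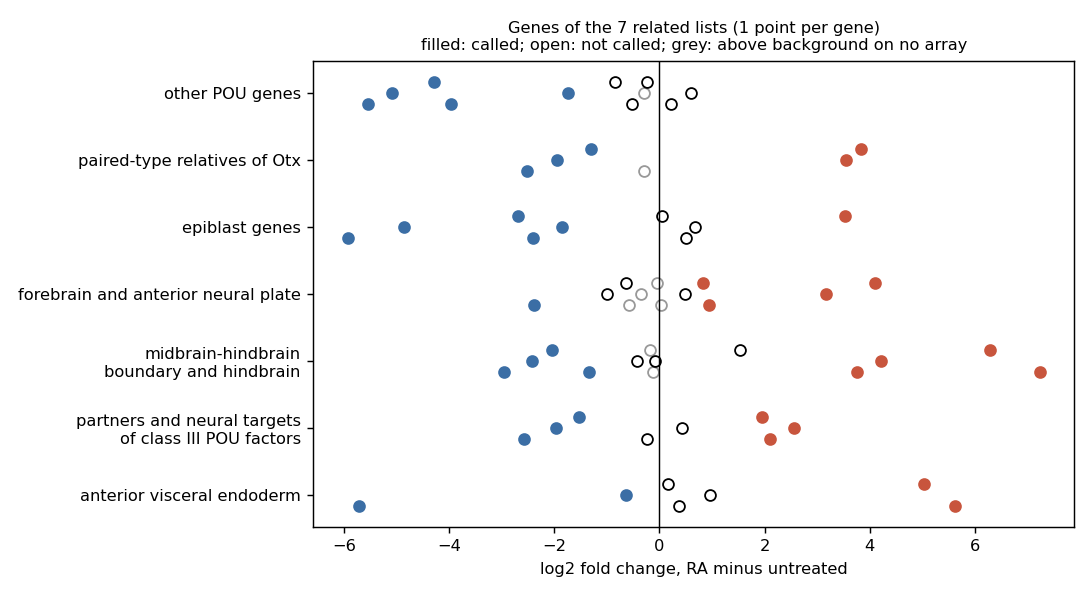
Log2 fold change of RA-treated against untreated cells (horizontal axis) for the genes of the 7 related lists, 1 point per gene, displaced vertically only to keep points apart. Filled red points were called higher, filled blue points lower, open points were not called, and grey points were above background on no array. The other POU genes hold 5 filled points, all to the left, whereas the hindbrain list holds 4 on each side.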

How the data were processed

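Total RNA of the 8 cultures was labelled with Cy3 and hybridised to Agilent 1-colour arrays. The authors deposited scanner output from Feature Extraction (version 10.7.3.1), with a background-corrected intensity per spot, the raw signal and background intensities, and other columns holding quality flags. A table of log2 values deposited by the authors, whose background correction and normalization are not given in the sources used here, served as an alternative.

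Log2 processed intensities were scaled to the 75th percentile of the 59305 non-control spots of an array. Control spots (3671) and outlier spots (124 to 145 per array) were left out, no spot was saturated, and spots of a probe were averaged. Between 33629 and 37175 spots per array were well above background. The number of arrays, 4 per condition, limits the precision. The test was limma (version 3.58.1, lmFit and eBayes, in R version 4.3.3) with Benjamini-Hochberg adjustment over 55681 probes. A call needed an adjusted p under 0.05 and a change above 1.5-fold, as in the study. A gene takes its brightest probe over the 8 arrays. Where a probe was well above background on no array of a condition and on all arrays of the other, the fold is a lower bound. It comes from the bright group's mean and, for each dim array, the higher of the lowest signal well above background and the probe's own signal. Only the limma fit was run on simulated data, with normal noise of equal spread in both conditions. That setting lacks the wider spread after RA and the substitute values of these arrays, so it does not test the fit under them.

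The members and gene lists were chosen with earlier results of these data known. Named are the 6 members, up to 2 called genes with the largest increase and 2 with the largest decrease in each related list, and the 3 genes closest to *Otx2* and *Pou3f1*. *Gbx2*, *Crx*, *Tubb3* and genes named without values were picked after seeing the data. 1 gene that this rule names is not reported here. Further markers were those of mesoderm and smooth muscle (2 of 6 called higher, 1 lower) and trophoblast (4 of 4 on the array called higher).

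Replicates are numbered 1 to 4 in both conditions by the labels. Over 27504 probes above background on all arrays, deviations from the condition means correlated at 0.104 to 0.189 between same-numbered arrays, all over 0.1, and at most at 0.142 between others, and the numbers were therefore treated as pairs. These ranges overlap, so the pairing is not certain, and the main test did not use it. Alternatives were quantile normalization, normexp background correction (offset 50), both together, the authors' log2 values, a filter on dim probes (above background on at least 4 arrays), a test against 1.5-fold, slide or replicate as a block, and leaving out each array. An exact test within the replicate pairs was added for the paralog differences after seeing the data.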

Additional observations from a re-analysis of the deposited data

Results flagged for a closer look

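In 30 genes and 2 conditions, 60 groups of 4 arrays were searched for an array far from the other 3, and 10 were found where chance gives about 3. Of the members, *Pou3f2* stood at -7.93 on RA replicate 1 against -5.50 to -5.15 on the other RA arrays, a substitute value of the software on that array. *Otx1* stood at -7.79 on RA replicate 2 against -7.98 to -7.95, where all its values are substitutes. Values of *Sox2* (2.31 against 1.63 to 1.67) and *Pou4f2* (-5.95 against -7.87 to -7.74) were high on RA replicate 2, on which *Otx2* and *Pou3f1* were also highest. No *Pou4f2* value in RA-treated cells was well above background, however. On untreated replicate 1, *Hoxa2* was at -5.94 (others -7.50 to -7.27), *Foxa2* at 0.009 (others -1.04 to -0.91) and *Pax8* at -2.62 (others -3.67 to -3.60). *Utf1* was low on untreated replicate 3, at 5.80 against 6.23 to 6.31, where *Otx2* was lowest too. *Lhx2* was at -0.46 on RA replicate 3 against -0.26 to -0.24, and *Myt1l* at -6.02 on RA replicate 1 against -7.70 to -7.47. The flagged values of *Hoxa2* and *Myt1l*, like those of *Pou4f2* and the members, were not well above background, so the count of 10 includes background signal.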

How the results depend on the processing

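*Otx2* stayed called lower in every alternative that kept all arrays, with log2 fold changes from -6.49 to -5.67 and adjusted p-values up to 0.00113, and *Pou3f1* in all but the test against 1.5-fold (log2 fold change -1.92, adjusted p = 0.0578), which left 1 member called lower and 4171 probes higher and 5728 lower. The replicate block changed no call of a member (*Otx2* adjusted p = 0.000492, *Pou3f1* 0.0132, *Pou3f3* 0.111). *Pou3f3* was called higher, and members called higher became 1, with quantile normalization (1.70, adjusted p = 0.0473) and with the filter on dim probes (1.26, adjusted p = 0.0439), which removed *Otx1*, *Pou3f2* and *Pou3f4* and tested fewer probes. *Pou3f2* turned to -0.0083 with normexp. Probes called lower fell to 6603 with normexp and quantile normalization and to 6583 with the authors' values. Quantile normalization moved the median of all probes from -0.28 to -0.0026 and called 8152 higher and 8704 lower. The cause was not tested for these shifts. Leaving out 1 array gave -7.19 to -5.71 for *Otx2* and -2.35 to -1.51 for *Pou3f1*, both called throughout, 0.73 to 1.66 for *Pou3f2* (called only without RA replicate 1), 0.87 to 1.64 for *Pou3f3* (called only without untreated replicate 2), 0 to 1 members higher, 2 lower throughout, and 6549 to 7281 probes higher and 10601 to 12676 lower. The difference in change between *Pou3f2* and *Pou3f3* ran from -0.61 to 0.36 and was above 0 only without RA replicate 1, at 0.36, but rests largely on values not above background. In the forebrain list 2 genes instead of 1 were called lower with normexp, the dim filter and without untreated replicate 3 or RA replicate 1 or 2, and in the anterior visceral endoderm list 1 instead of 2 with normexp (with or without quantile normalization), the authors' values and without untreated replicate 3 or RA replicate 3. In the partners list 2 instead of 3 were called lower with normexp (with or without quantile normalization), the authors' values and the dim filter, and forebrain genes called higher were 3 or 4 throughout. The mean of a gene's probes was planned for the members alone, and each has 1 probe, so the value is the same.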
